A study of Mus musculus with 16 samples.

Results

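Memory CD8+ T cells from skin were compared with memory CD8+ T cells from lung, both recovered from C57BL/6 mice with melanoma-associated vitiligo. The comparison held 3546 cells, 1224 from skin and 2322 from lung, of the 5727 cells in the deposited table, which also covers liver and the draining lymph node. Cells were assigned by the tissue in their column name. Genes with a summed count of at least 20 over both tissues were compared, which left 9032 of 9223 listed genes. All groups were Pmel CD8 T cells, whose transgenic receptor recognises the melanocyte antigen gp100, carried Thy1.1, and came from mice aged 16 weeks at day 45 after tumor surgery. Vitiligo is the autoimmune loss of pigment cells, and the pigment cells of skin make the antigen. Per the labels' protocols, minced skin was incubated with collagenase IV plus DNase, and minced lung with Liberase plus DNase before a Percoll gradient. The 4 samples of a tissue have titles that end in L001 to L004 and no columns of their own, so each tissue is 1 library without replicates. No difference was therefore tested, and intervals are exact 95% intervals that cover counting error only. No source used here gives how many mice were pooled, whether the lung held tumor cells, or how the cells were isolated.

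Resident memory T cells stay in a tissue after an infection or tumor is cleared, whereas circulating memory T cells pass between blood, lymph and tissue. Exit from a tissue needs S1PR1, a receptor for a lipid that is abundant in blood and lymph. The transcription factor KLF2 switches S1pr1 on, and the surface protein CD69 pulls the receptor from the membrane. Many resident cells in epithelia also carry the integrin CD103, encoded by Itgae, which binds E-cadherin on epithelial cells. Immediate early genes are transcribed within minutes of a signal, such as one through the T cell receptor, and do not need new protein. They are also known to be induced while tissue is digested with enzymes at body temperature, and skin and lung were digested by different protocols, so tissue and digestion cannot be told apart here.

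Immediate early and NF-kB genes were mostly higher in skin, interferon stimulated genes were mostly lower, and chemokine genes were split between the tissues. The promoters of 7 genes of these lists are printed here because known binding motifs of signal-driven factors stand in them. Of the 7, Isg15 was higher in skin, against the order of its list. Each is the RefSeq sequence of the 250 bases before the annotated start on GRCm38.p6, written 5′ to 3′ on the gene's strand, with the motif in capitals. In the chemokine gene Ccl1 the capitals mark a kB-like motif, GGG and CC around 5 bases of any kind, found on both strands as overlapping matches. In Dusp5 and Zfp36, genes of a phosphatase and of an mRNA-degrading protein, they mark the CArG box, CC and GG around A or T bases, which is the serum response element. In Btg2 and Dusp1, genes of an antiproliferative protein and a phosphatase, they mark TGACGTCA, the full cAMP response element.
Ccl1 (chr11:82179813-82180062, minus strand): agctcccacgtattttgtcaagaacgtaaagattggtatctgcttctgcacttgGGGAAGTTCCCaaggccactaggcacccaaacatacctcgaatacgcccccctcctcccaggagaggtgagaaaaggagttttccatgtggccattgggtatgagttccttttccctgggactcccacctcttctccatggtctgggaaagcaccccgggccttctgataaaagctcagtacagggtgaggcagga
Dusp5 (chr19:53528895-53529144, plus strand): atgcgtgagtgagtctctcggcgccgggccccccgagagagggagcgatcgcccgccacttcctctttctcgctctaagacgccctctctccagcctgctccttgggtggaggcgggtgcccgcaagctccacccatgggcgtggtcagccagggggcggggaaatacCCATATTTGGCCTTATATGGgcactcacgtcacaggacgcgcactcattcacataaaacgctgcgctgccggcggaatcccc
Zfp36 (chr7:28379229-28379478, minus strand): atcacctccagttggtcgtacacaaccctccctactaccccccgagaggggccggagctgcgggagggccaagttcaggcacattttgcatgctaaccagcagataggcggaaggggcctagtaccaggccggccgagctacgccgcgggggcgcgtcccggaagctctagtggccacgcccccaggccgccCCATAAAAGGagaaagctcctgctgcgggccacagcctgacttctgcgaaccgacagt
Btg2 (chr1:134079156-134079405, minus strand): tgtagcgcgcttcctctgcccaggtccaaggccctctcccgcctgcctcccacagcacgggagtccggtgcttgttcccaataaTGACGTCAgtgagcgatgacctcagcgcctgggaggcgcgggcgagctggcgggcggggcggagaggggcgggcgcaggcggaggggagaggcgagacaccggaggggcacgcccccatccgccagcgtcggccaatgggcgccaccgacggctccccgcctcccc
Dusp1 (chr17:26508473-26508722, minus strand): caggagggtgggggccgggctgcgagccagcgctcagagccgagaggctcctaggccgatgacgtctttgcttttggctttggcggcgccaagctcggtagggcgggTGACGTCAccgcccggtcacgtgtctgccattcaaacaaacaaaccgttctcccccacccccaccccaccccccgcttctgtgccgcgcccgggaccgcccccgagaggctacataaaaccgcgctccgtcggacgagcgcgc
In Bst2 and Isg15, both interferon stimulated, they mark the interferon stimulated response element, written as GAAA, 2 bases of any kind and GAAA.
Bst2 (chr8:71537473-71537722, minus strand): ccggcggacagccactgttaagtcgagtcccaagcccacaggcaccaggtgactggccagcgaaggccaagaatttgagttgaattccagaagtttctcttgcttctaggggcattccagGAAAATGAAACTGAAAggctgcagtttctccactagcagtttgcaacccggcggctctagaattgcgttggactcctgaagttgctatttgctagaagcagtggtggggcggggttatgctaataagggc
Isg15 (chr4:156200819-156201068, minus strand): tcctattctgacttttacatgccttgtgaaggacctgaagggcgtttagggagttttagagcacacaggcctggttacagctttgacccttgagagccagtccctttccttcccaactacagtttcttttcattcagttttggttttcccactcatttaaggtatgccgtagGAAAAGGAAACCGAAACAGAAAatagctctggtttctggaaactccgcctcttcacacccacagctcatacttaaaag
All 5 motifs were searched on both strands, and the motifs can overlap each other. RefSeq gave 28 promoters for 24 of the 28 immediate early genes compared, and since the promoters of a gene can share 1 site, each gene is counted once. A CArG box stood in 3 of the 24 genes (12.5%), Egr2, Dusp5 and Zfp36, against 1.29% of the 6958 matched genes compared. TGACGTCA also stood in 3 of the 24 (12.5%), against 3.36% of the genes compared. TGANTCA, the AP-1 motif, stood in 1 (4.17%), against 5.001% of the genes compared. Over the 27025 genes of the whole promoter table the 3 shares were 1.62%, 1.77% and 7.82%. Of 22 interferon stimulated genes 13 (59.1%) held the interferon stimulated response element, against 3.29% of the genes compared and 3.46% of the table. The kB-like motif was common, in 66.7% of the genes compared, 48.7% of the table and 10 of 12 (83.3%) NF-kB genes. It stood in 18 of the 24 immediate early genes. Among chemokine ligands, the list of Ccl1, it stood in 4 of 7 (57.1%), a smaller share than in the genes compared. A match describes the letters in this window and is no measure of binding.

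Skin held 3292210 counts and lung 8072278, with medians of 2517.5 and 2943 counts per cell. A level is given in CPM, the summed count of a gene in 1 tissue scaled to 1000000 counts. Shares are percentages of cells with at least 1 count after each cell was thinned to 1838 counts, which left 1108 skin and 2084 lung cells and left out 116 and 238 shallower ones. T cell genes marked both libraries: Cd3g had a count in 98.7% of skin and 94.6% of lung cells, and Cd8a in 89.0% and 70.4%. Most markers of other cells were in few cells, and those of melanocytes, fibroblasts and erythrocytes were not analysed here. The 2 exceptions were Cd74, the invariant chain of MHC class II, in 18.7% of skin and 7.10% of lung cells at 171 and 73.2 CPM, and the CD4 T cell marker Cd40lg, in 20.1% and 2.26% at 146 and 11.9 CPM. All 4 antigen presenting markers summed to 204 CPM in skin and 108 in lung, and the other 3, H2-Aa, H2-Ab1 and H2-Eb1, were each in under 3% of cells of either tissue. The keratinocyte markers analysed, 3 of 10, summed to 82.0 CPM in skin and 35.2 in lung, with Sfn in 6.86% and 3.84% of cells. The myeloid markers analysed, 5 of 9, summed to 18.2 and 68.9 CPM over those compared and included Lyz2, at 0 counts in skin and in 5.23% of lung cells, and Csf1r, at 0 in both. Scgb1a1 of airway epithelium reached 0.09% of skin and 2.16% of lung cells, and Trdc, which marks gamma delta T cells, 6.23% and 0.48%. Of the 69 skin cells with Trdc, 92.8% (83.9 to 97.6) also had Cd8a. The part of these markers in the results was not tested. The largest share of any such marker was 20.1% in skin and 7.10% in lung, or 6.86% and 5.23% without Cd74 and Cd40lg. No cells that should lack a gene were at hand to set its background, so a share up to the larger pair is read as possible background. A ratio whose lower level has such a share is not a measure of absence in the lower tissue. Skin and lung shared 7 cell barcodes.

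The libraries also differed in features that are not T cell biology. Skin cells have column names with a 2 next to the tissue and lung cells do not. No source used here says what it marks, and the tissue and this library difference cannot be told apart. Of 14 listed pseudogenes with names in -ps, 12 were at least 2-fold higher in skin and 13 had a larger ratio than their parent gene. The median log2 ratio of the 14 was 2.15. Their sums were 7766 CPM in skin and 7074 in lymph node, whose names also carry the 2, against 2149 in lung and 2102 in liver. Among 314 genes that share at least 30% of their 31-base words with another gene, 34.7% were at least 2-fold higher in skin, against 15% of 8429 genes that share less. Ribosomal protein genes took 18.3% of skin counts and 24.7% of lung counts. Genes with longer transcripts also had higher ratios: the median log2 ratio was 0.01 for genes with transcripts of up to 2099 bases and 0.48 for those of 4654 bases or more. The part of these differences in the results that follow was not tested.

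Of the 9032 genes, 1417 (15.7%) were at least 2-fold higher in skin and 575 (6.37%) at least 2-fold higher in lung. By any amount, 61.9% were higher in skin and 38.1% in lung. At 4-fold the counts were 373 (4.13%) and 160 (1.77%). The interval lay above equality for 3338 genes (37.0%) and below it for 1730 (19.2%). The median log2 ratio of all genes was 0.21, toward skin. Scaling by the median ratio of well covered genes shifted it by -0.20, and the share of the 2-fold differences that were toward skin went from 71.1% to 56.3%. Differences toward skin were more frequent at low depth, with 25.8% of genes of 20 to under 100 summed counts at least 2-fold higher in skin, against 10.9% of genes with 1000 or more. The lists described next share some members, and their 2-fold counts are to be read against 15.7% and 6.37%.

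**Figure D1:**
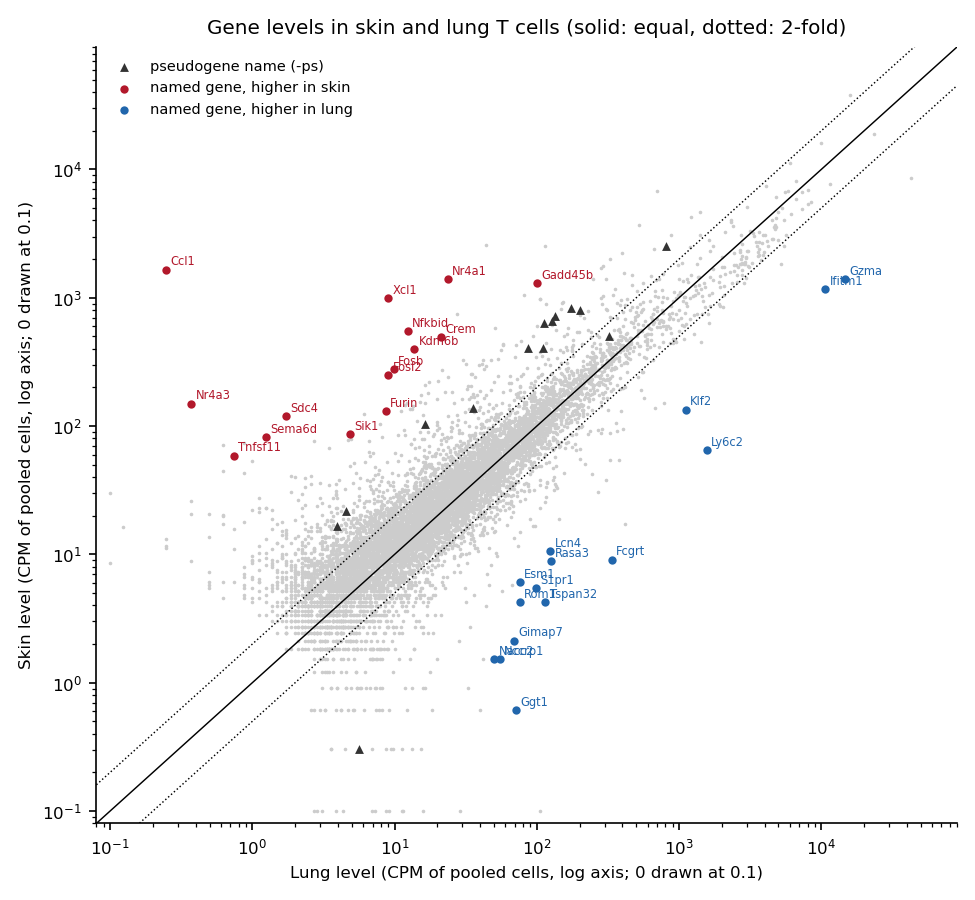
Level of each of the 9032 genes in lung (x axis) and skin (y axis), as CPM of pooled cells on log axes, with 1 point per gene, named genes in color and pseudogene names as triangles. The 15 named genes toward skin lie 13-fold or more above the line of equality, and 12 of the 14 pseudogenes lie above the dotted 2-fold line.

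The 15 genes named for skin were Ccl1, Nr4a3, Xcl1, Nr4a1, Sdc4, Nfkbid, Tnfsf11, Sema6d, Kdm6b, Fosb, Fosl2, Crem, Sik1, Gadd45b and Furin. They had the interval bound farthest from equality among eligible genes, which needed 50 CPM and a count in 10% of skin cells before thinning. Their ratios ran from 13 for Gadd45b to 6690 for Ccl1, with a median of 44.3. Some had skin shares at equal depth within those of markers of other cells there. These were Tnfsf11 (8.39%), Sema6d (13.5%), Ccl1 (14.6%), Sik1 (14.8%), Furin (16.5%) and Sdc4 (17.5%). The median skin cell held a count of 5 of the 15 at equal depth, and the median lung cell of 0. In lymph node the median was 0 and in liver 1. The highest level among the other tissues was 66.9 CPM for Xcl1 in lymph node and 167 CPM for Nr4a1 in liver, each below its level in skin. They were chosen for this difference, so the values describe it and support nothing beyond it.

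The 15 genes named for lung were Ggt1, Fcgrt, Ly6c2, Tspan32, Gimap7, Nccrp1, Nacc2, S1pr1, Rom1, Gzma, Rasa3, Ifitm1, Lcn4, Esm1 and Klf2. Their ratios of lung over skin ran from 8.30 for Klf2 to 117 for Ggt1, with a median of 18.2. The median lung cell held 5 of them and the median skin cell 1. Liver, the other library without the 2, also had a median of 5 and lymph node 1. Of these genes Ly6c2 shares 21.4% of its words with its neighbor Ly6c1, so part of its counts could belong to either.

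**Figure D2:**
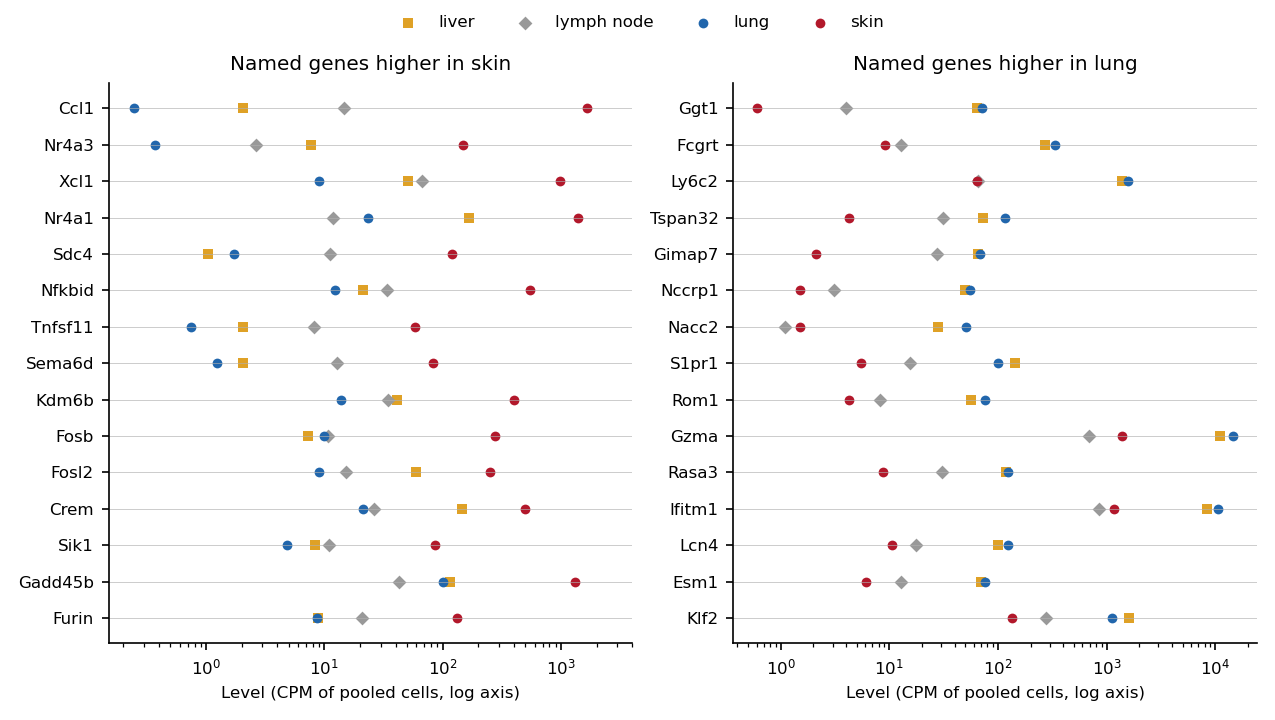
Level of the 15 named genes of each direction in skin, lung, lymph node and liver, as CPM of pooled cells on a log axis, with 1 point per library. Skin stands apart to the right in the left panel, and in the right panel lung and liver lie together above skin and lymph node.

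Immediate early genes were higher in skin in nearly every cell. Of the 28 immediate early genes compared, 27 were higher in skin and 24 at least 2-fold, with a median log2 ratio of 2.46 against 0.21 over all genes. At equal depth the list gave a median of 46 counts per skin cell (10th to 90th percentile 25 to 71) and 9 per lung cell (4 to 19), and 94.3% of skin cells lay above the 90th percentile of lung. Lymph node cells had a median of 13 and liver cells of 12. The difference thus lay in most skin cells rather than in a few.

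The Nr4a nuclear receptors, which are induced by T cell receptor signals and restrain T cell function, were all higher in skin. Nr4a1 (chr15:101254269-101274795, plus strand, GRCm38) stood at 1395 CPM in skin, 23.5 in lung, 11.9 in lymph node and 167 in liver, 59.3-fold higher in skin than in lung (51.2 to 68.9), with a count in 81.8% of skin and 3.89% of lung cells. Nr4a3 stood at 150 CPM in skin and 0.37 in lung, from 493 and 3 counts, a ratio of 403 (137 to 1961). Nr4a2 stood at 243 and 23.8 CPM, 10.2-fold (8.72 to 12.0). The AP-1 genes, whose products pair to bind DNA, had no common ratio. Fosb stood at 278 CPM in skin and 9.91 in lung and Fosl2 at 250 and 9.04, and Junb at 6837 and 697 CPM was 9.80-fold higher (9.52 to 10.1), in 98.6% of skin and 60.3% of lung cells. Jun, by contrast, stood at 43.7 and 34.6 CPM, 1.27-fold higher (1.03 to 1.55), and in lymph node at 115 CPM.

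Btg2, Dusp1, Dusp5 and Zfp36, feedback genes of the same response, had smaller ratios than the Nr4a genes and Junb, but larger ones than Jun. Btg2 stood at 2009 CPM in skin and 325 in lung, 6.18-fold (5.90 to 6.47), and Dusp1 at 1394 and 248, 5.62-fold (5.33 to 5.93). These are the genes whose promoters are shown with TGACGTCA. The CArG box genes Dusp5 and Zfp36 were 3.56-fold (3.32 to 3.82) and 5.37-fold (4.92 to 5.86) higher in skin. Dusp2, a phosphatase of MAP kinases like Dusp1, was the 1 member higher in lung, at 208 CPM in skin and 367 in lung (1.76-fold, 1.62 to 1.92). Among growth arrest and p53 target genes 11 of 16 were higher in skin, 9 of them 2-fold, and 2 were 2-fold higher in lung. Cdkn1a, an inhibitor of cyclin-dependent kinases, stood at 578 and 50.5 CPM (11.4-fold, 10.3 to 12.8), and Gadd45b, a stress-induced signaling adaptor, at 1303 and 100 CPM. Cdkn2d, another kinase inhibitor, went the other way, at 75.6 CPM in skin and 166 in lung.

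All 15 genes of NF-kB subunits and inhibitors were higher in skin, 10 of them at least 2-fold, with a median log2 ratio of 1.74. With scaling by the median ratio, 13 of the 15 were higher. NF-kB is held in the cytoplasm by inhibitors that its own activity induces. Among the inhibitors, Nfkbia stood at 3708 CPM in skin and 523 in lung (7.09-fold, 6.85 to 7.35), Tnfaip3 at 933 and 154 (6.07-fold) and Nfkbid, a nuclear inhibitor, at 549 and 12.4 (44.3-fold, 36.2 to 54.7). Of the subunits Rel was 7.65-fold higher (6.19 to 9.51), whereas Rela, at 43.4 and 38.8 CPM, had an interval that held equality (0.91 to 1.37). Per cell the list gave a median of 10 counts in skin and 2 in lung.

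**Figure D3:**
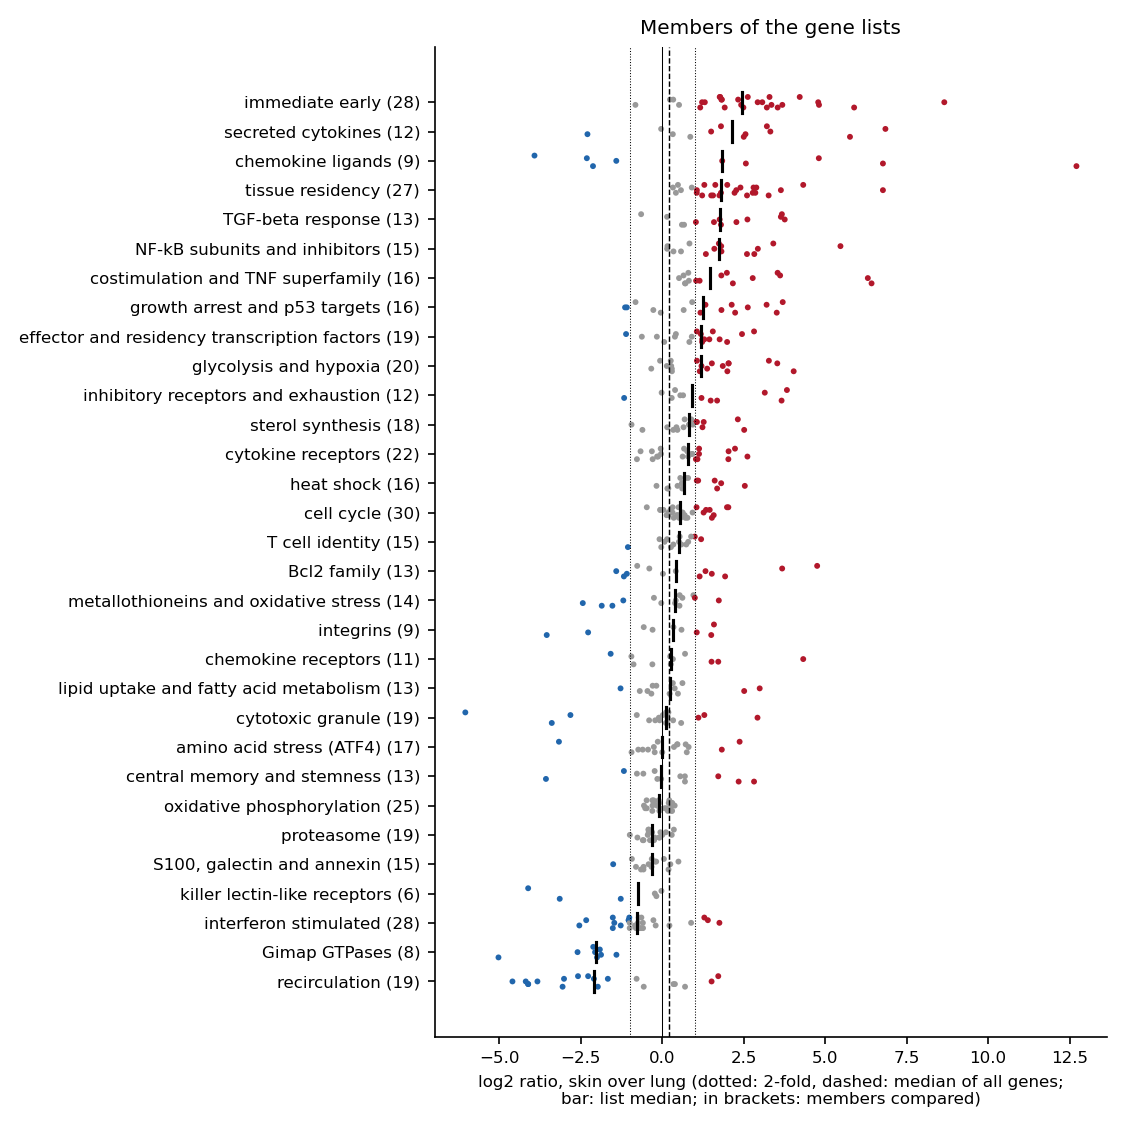
Log2 ratio of skin over lung (x axis) for the members of each of the 31 gene lists (rows), with 1 point per gene, colored past 2-fold, and a bar at the list median. The immediate early list has the largest median, 2.46, and the recirculation list the lowest, -2.09, while the dashed line marks 0.21 for all genes.

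Skin cells held higher levels of several secreted signals, and lung cells of 1 abundant chemokine. Among 9 chemokine ligands, 5 were at least 2-fold higher in skin and 4 at least 2-fold higher in lung. The list summed to 14144 CPM in skin and 43285 in lung, with medians of 16 and 90 counts per cell at equal depth. Ccl1, a ligand of the receptor CCR8, stood at 1658 CPM in skin, 0.25 in lung, 14.6 in lymph node and 2.07 in liver. Its ratio of skin over lung was 6690 (1851 to 55256), resting on 2 lung counts, both in 1 cell. In skin, 14.6% of cells had a count of Ccl1, a share below that of Cd40lg there, and a single cell held 1410 of its 5457 counts. Without the top cell of each tissue, the 0 counts then left in lung were set at 3, and Ccl1 was at least 3308-fold higher in skin. Ccr8, the gene of its receptor, stood at 39.8 CPM in skin and 1.98 in lung (20.1-fold, 11.9 to 36.2).

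Xcl1, which attracts cross-presenting dendritic cells, stood at 988 CPM in skin and 9.04 in lung, 109-fold (86.7 to 140) and 75.9-fold without the top cells, since 1 skin cell held 1241 of 3254 counts. Of skin cells with Ccl1, 32.1% (25 to 39.9) also had a count of Xcl1, against 19.2% (16.8 to 21.9) of skin cells without it. The inflammatory chemokines Ccl3 and Ccl4 were 5.93-fold (5.40 to 6.52) and 3.59-fold (3.46 to 3.71) higher in skin, and Ccl3 4.37-fold without the top cells. Weighing each cell the same moved Ccl3 further, to a log2 ratio of 1.75 from 2.57. Ccl5, a chemokine that memory CD8+ T cells store, went the other way, at 8574 CPM in skin, 42510 in lung, 15420 in lymph node and 46612 in liver, 4.96-fold higher in lung than in skin (4.90 to 5.02). It was detected in 90.9% of skin and 99.9% of lung cells, so the difference lay mostly in the amount per cell. Cxcl2, Ccl6 and Ccl9 were the other members higher in lung. Of the 4 members toward lung, only 3 had an interval that excluded equality. Ccl9 stood at 1.82 CPM in skin and 7.93 in lung, from 6 and 64 counts.

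Of 12 secreted cytokines 10 were higher in skin, 8 of them at least 2-fold. Ifng, the gene of interferon gamma, stood at 2245 CPM in skin, 396 in lung, 171 in lymph node and 379 in liver, 5.67-fold higher in skin than in lung (5.44 to 5.91). It had a count in 69.0% of skin and 41.7% of lung cells. Tnf was 5.88-fold higher (5.11 to 6.79), and Il2, the T cell growth factor, 9.27-fold (7.64 to 11.3). Il13 and Areg, genes of a type 2 cytokine and of a growth factor in wound repair, stood at 53.8 and 71.4 CPM in skin and 0.99 and 0.62 in lung, with counts in 5.60% and 4.24% of skin cells, within the shares of markers of other cells there. Of the 62 skin cells with Il13, 8.06% (2.67 to 17.8) also had Areg, against 4.02% (2.91 to 5.39) of the other skin cells, so most cells with 1 of the pair had no count of the other. Ltb, a lymphotoxin gene, was level, at 689 and 703 CPM with an interval of 0.97 to 1.07 for lung over skin.

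Residency genes were higher in skin throughout the list, by very different amounts. All 27 members compared were higher in skin, 22 of them at least 2-fold, with intervals above equality for all 27 and a median log2 ratio of 1.80. With scaling by the median ratio 27 were higher and 20 at least 2-fold. As for all lists, the members were chosen with earlier results of these data known, and they include Xcl1, also named for skin. The counts therefore describe the list and test nothing. Cd69 stood at 614 CPM in skin, 127 in lung, 94.9 in lymph node and 96.5 in liver, 4.84-fold higher in skin than in lung (4.48 to 5.22), with 56.9% of skin and 19.4% of lung cells. Itgae stood at 542, 191, 373 and 179 CPM in the same order, 2.84-fold (2.65 to 3.04), with 61.7% and 30.2% of cells. Both genes were thus lower and in fewer cells in lung, but lymph node came closer to skin for Itgae than for Cd69. Itga1, the collagen-binding integrin chain of resident cells, was 2.09-fold higher (1.68 to 2.59).

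Having Itgae went with little difference in Cd69 within either tissue. In skin, 58.5% (54.7 to 62.2) of cells with Itgae had Cd69, against 54.2% (49.4 to 59.1) of cells without it. In lung the shares were 19.7% (16.7 to 23.0) and 19.2% (17.2 to 21.4). Several members had larger ratios than the 2 defining genes. Litaf, a gene of an endosomal membrane protein, stood at 429 and 57.9 CPM (7.41-fold, 6.67 to 8.24), and Cdh1, which encodes E-cadherin itself, at 63.2 and 6.57 CPM (9.62-fold, 7.09 to 13.3). Rgs2, a brake on G protein signaling, was 6.08-fold higher (5.79 to 6.38), and Skil, a negative regulator of SMAD signaling, 12.5-fold (10 to 15.7). Cxcr6 and Runx3, a chemokine receptor and a transcription factor of resident cells, differed least, at 1346 and 1070 CPM (1.26-fold, 1.21 to 1.30) and at 98.7 and 73.7 CPM (1.34-fold, 1.17 to 1.54). Cxcr6 had a count in 84.2% of skin and 83.2% of lung cells. Zfp683, the gene of the residency factor Hobit, was near the limit of these data, with 18 counts in each tissue.

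**Figure D4:**
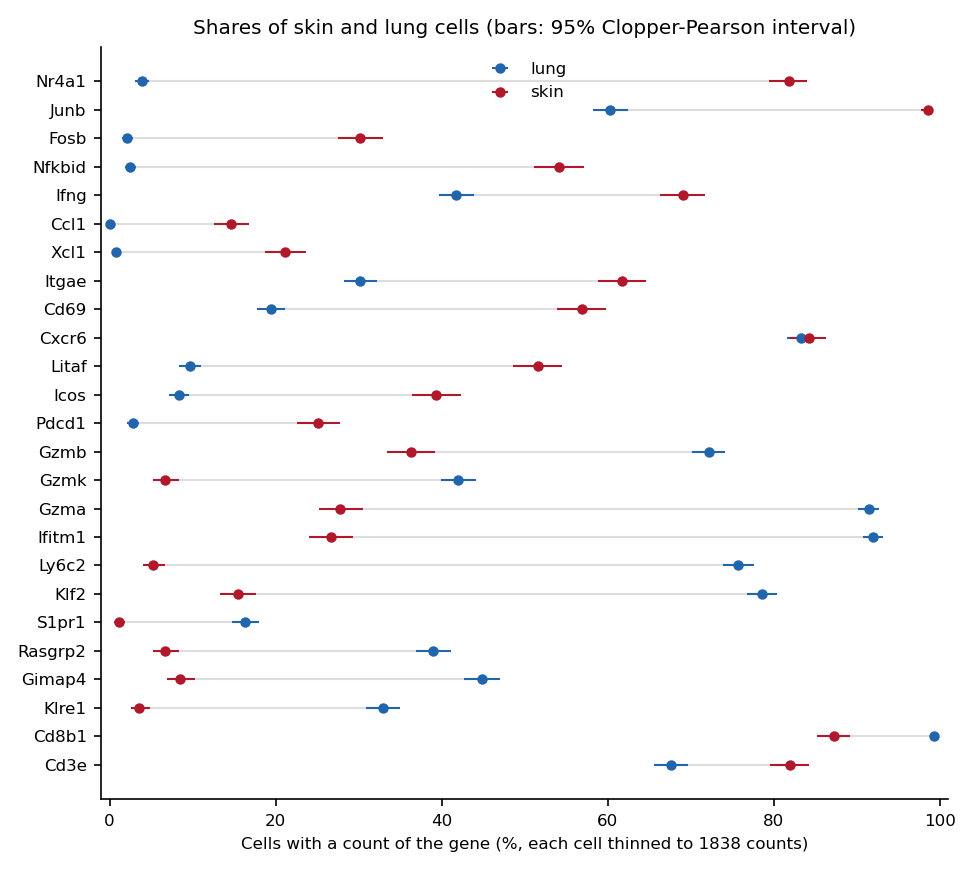
Share of cells with a count of 25 genes (x axis, percent of cells thinned to 1838 counts) in skin and lung, with exact 95% Clopper-Pearson intervals as bars. Nr4a1 runs from 3.89% of lung to 81.8% of skin cells, Gzma from 27.8% of skin to 91.5% of lung cells, and Cxcr6 lies at 84.2% and 83.2%.

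Genes of recirculation showed the opposite order. Of 19 compared, 14 were higher in lung, 12 of them at least 2-fold, and 2 were at least 2-fold higher in skin. The median log2 ratio of the list was -2.09. Klf2 (chr8:72319033-72321656, plus strand, GRCm38) stood at 134 CPM in skin, 1115 in lung, 276 in lymph node and 1616 in liver, 8.30-fold higher in lung than in skin (7.55 to 9.16). It had a count in 15.4% of skin cells, within the shares of markers of other cells there, and in 78.6% of lung cells. S1pr1 (chr3:115710433-115715072, minus strand, GRCm38) stood at 5.47, 99.4, 15.4 and 144 CPM in the same order, 18.2-fold higher in lung (11.4 to 30.8). In skin it had 18 counts in all and lay in 1.08% of cells, within the shares of markers of other cells, and in lung in 16.4%. Within lung, 17.6% (15.8 to 19.6) of cells with Klf2 had S1pr1, against 11.7% (8.83 to 15) of cells without Klf2.

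Other members with the same order included S1pr4, a related receptor, at 94.8 CPM in skin and 404 in lung (4.27-fold, 3.80 to 4.81), and Rasgrp2, an exchange factor that activates integrins through RAP1, at 38.0 and 306 (8.06-fold, 6.73 to 9.72). Itgb1, the shared integrin beta chain, stood at 139 and 673 CPM (4.82-fold, 4.39 to 5.32). Klrg1, an inhibitory receptor of terminally differentiated circulating cells, had 0 counts in skin and 127 in lung, at least 17.3-fold higher in lung with 3 counts set for skin. Exceptions were Ccr7, Usp33, Cx3cr1, Zeb2 and Itgal, which were higher in skin. Ccr7, the lymph node homing receptor, had only 39 and 29 counts, and 1 skin cell held 20 of them. The ratio of Ccr7 was 3.30 (1.99 to 5.53) and 2.03 without the top cells. Per cell the list gave medians of 4 counts in skin and 13 in lung, and 86.1% of lung cells lay above the 90th percentile of skin.

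Itgae was detected about as often in cells with Klf2 as in cells without it. In skin the share of Klf2 is read as possible background, so the skin cells with Klf2 may not be a distinct group. In lung, 30.0% (27.8 to 32.3) of cells with Klf2 had Itgae, against 30.7% (26.5 to 35.2) of cells without it, and in skin 60.8% (53.1 to 68.2) against 61.9% (58.7 to 65.0). Skin cells with Klf2 also had Nr4a1 in 86.0% of cases (79.8 to 90.8), against 81.0% (78.3 to 83.5) of the other skin cells. Chemokine receptors and integrins as families had no common direction. Of 11 chemokine receptors 3 were 2-fold higher in skin and 1, Ccr2, in lung, at 130 and 389 CPM, or 3 and 3 with scaling by the median ratio. Cxcr3, a receptor of interferon-induced chemokines, stood at 153 and 281 CPM, 1.84-fold higher in lung (1.67 to 2.03), while its ligand gene Cxcl10 stood at 76.2 and 2.73 CPM. Of 9 integrin genes 3 were 2-fold higher in skin and 2, Itgb1 and Itgax, in lung, or 2 and 2 with the same scaling. Central memory genes were split too, 6 of 13 higher in skin around a median log2 ratio of -0.03. Of the list, 3 genes were at least 2-fold higher in skin and 2 in lung. Tcf7 and Id3, transcription factors of memory precursors, were 5.09-fold (3.64 to 7.17) and 7.06-fold (4.91 to 10.3) higher in skin, and Il7r 1.71-fold higher in lung (1.48 to 1.98). Lef1 also went toward lung, with a log2 ratio of -3.56, or -1.76 without the top cells.

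Granzyme genes differed strongly from each other. Gzma (chr13:113093825-113100981, minus strand, GRCm38) stood at 1401 CPM in skin, 14636.5 in lung, 692 in lymph node and 11049 in liver, 10.4-fold higher in lung than in skin (10.1 to 10.8), in 27.8% of skin and 91.5% of lung cells. Gzmk stood at 54.1 and 380 CPM, 7.03-fold higher in lung (6.04 to 8.22). Gzmm had 2 counts in skin and 322 in lung, a ratio of 65.7 (18 to 545). Gzmb, the granzyme that activates caspases, stood closer, at 859 and 1133 CPM (1.32-fold higher in lung, 1.26 to 1.38), although it was in 36.3% of skin and 72.2% of lung cells. In 1 skin cell there were 182 of its 2828 counts. Gzmc went the other way, at 29.2 CPM in skin and 3.84 in lung. It shares 19.8% of its words with another gene, so its level is uncertain. Prf1, the pore-forming perforin, had an interval that held equality, at 16.4 and 14.7 CPM. Nkg7, a granule protein of killer cells, was nearly level at 4678 and 4926 CPM. The list as a whole had 11 of 19 members higher in skin, or 5 of 19 with scaling by the median ratio, and its median log2 ratio was 0.11 or -0.09 by the same choice. Per cell, the granule list gave medians of 17 counts in skin and 39 in lung. Gzma made up 14636.5 of the list's 24379.7 CPM in lung and 1401 of its 10802 CPM in skin.

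Skin cells with Gzma more often had Ifitm1 and Ly6c2, which were also named for lung, and so did lung cells with Gzma. Of the 308 skin cells with Gzma, 54.9% (49.1 to 60.5) had Ifitm1, an interferon-inducible membrane protein gene, against 15.8% (13.3 to 18.5) of the other skin cells. Ly6c2 was in 10.1% (6.94 to 14.0) of them and 3.38% (2.24 to 4.87) of the others, and Klf2 in 19.2% (14.9 to 24.0) and 14.0% (11.7 to 16.6). The intervals of Klf2 overlap, and the shares of Ly6c2 and Klf2 lay within those of markers of other cells in skin. Itgae did not differ in the same way, at 61.0% and 62.0%. Within lung, Ifitm1 was in 93.5% of cells with Gzma and 74.7% of those without, and Ly6c2 in 78.4% and 46.6%. Killer lectin-like receptors were all lower in skin, 5 of 6 with an interval that excluded equality and 3 at least 2-fold, led by Klrg1 and by Klre1 at 30.4 and 268 CPM (8.83-fold, 7.22 to 10.9). Klrd1, the CD94 chain, stood at 525 and 1266 CPM, and Klrk1, the activating receptor NKG2D, at 937 and 1059.

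Receptors that tune T cell activation were mostly higher in skin. Among inhibitory receptors and exhaustion genes 10 of 12 were, 6 at least 2-fold. Pdcd1, the gene of PD-1, stood at 272 CPM in skin, 21.4 in lung, 28.5 in lymph node and 154 in liver, 12.7-fold higher in skin than in lung (10.8 to 15), with counts in 25.1% and 2.78% of cells. Ctla4 was 2.31-fold higher (1.83 to 2.92), and Havcr2, the gene of TIM-3, was level at 36.1 and 36.5 CPM. All 16 genes of costimulation and the TNF superfamily were higher in skin, 10 at least 2-fold. Icos stood at 325 and 47.3 CPM (6.86-fold, 6.10 to 7.73). Cd40lg, the ligand that licenses dendritic cells and also a marker of CD4 T cells, stood at 146 and 11.9 (12.3-fold, 9.85 to 15.5), and Tnfrsf9, the activation-induced receptor 4-1BB, at 74.4 and 0.87, from 245 and 7 counts. At equal depth Tnfrsf9 was in 74 of 1108 skin cells, within the shares of markers of other cells there. Cd40lg, in 20.1% of skin cells, is itself the marker with the largest share. Cd28 was 1.77-fold higher (1.62 to 1.93). Of 22 cytokine receptor chains 8 were at least 2-fold higher in skin and 0 in lung, or 4 and 0 with scaling by the median ratio. Il21r was 4.71-fold higher (4.11 to 5.40) and Il2rb, the chain shared by the IL-2 and IL-15 receptors, 1.74-fold (1.59 to 1.89).

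TGF-beta, which promotes CD103 and residency in epithelia, has a response list here of 13 genes, of which 12 were higher in skin and 9 at least 2-fold. Tgif1 and Smad7, both feedback inhibitors, stood at 221 and 163 CPM in skin and 17.3 and 33.6 in lung, ratios of 12.8 (10.6 to 15.4) and 4.85 (4.18 to 5.63). The receptor chain Tgfbr2 was 2.05-fold higher (1.70 to 2.47). Smad3, the signal transducer, had an interval that held equality. Of 19 effector and residency transcription factors 16 were higher in skin, 11 at least 2-fold. Their summed level had the other order, at 2287 CPM in skin and 2643 in lung, with medians of 4 and 5 counts per cell. Tbx21, the gene of T-bet, was 3.98-fold higher (3.50 to 4.53), and Id2, a promoter of effector fate, 2.15-fold higher in lung (2.07 to 2.24). Gata3 was level at 103 and 98.6 CPM. T cell identity genes differed little, 2 of 15 past 2-fold toward skin and 1 toward lung, or 0 and 1 with scaling by the median ratio. The chains of the CD8 co-receptor diverged: Cd8a stood at 1374 CPM in skin and 687 in lung, and Cd8b1 at 1429 and 2959, 2.07-fold higher in lung (2.01 to 2.14). Lymph node had 1760 and 2172 CPM of the pair and liver 772 and 2915.

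**Figure D5:**
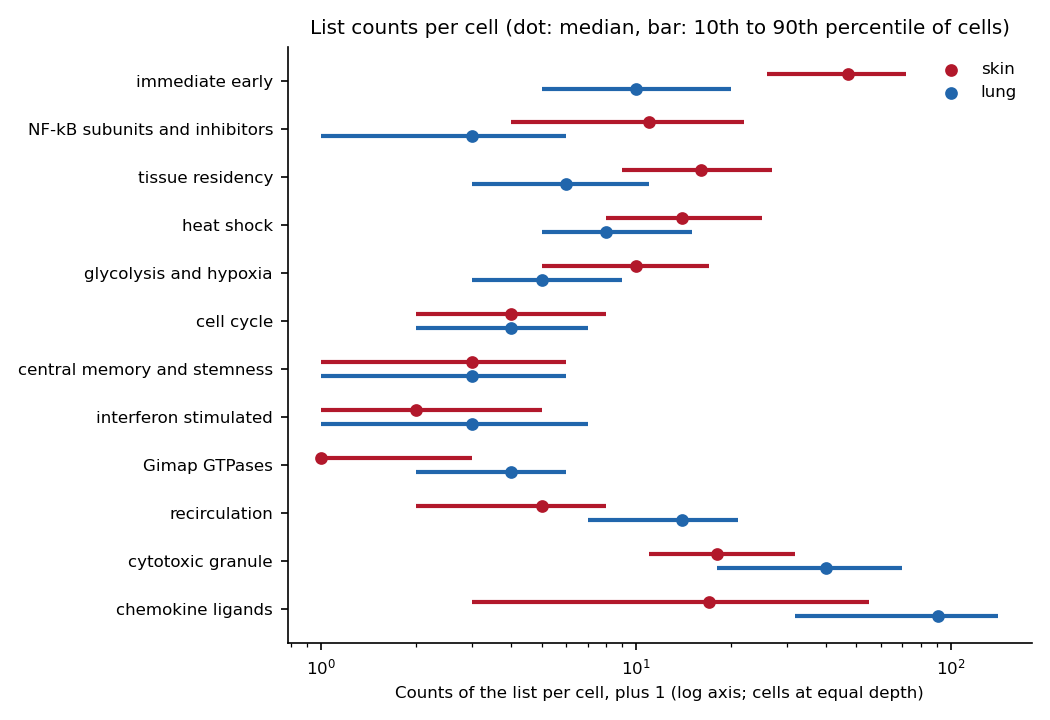
Counts of 12 gene lists per cell plus 1 (x axis, log) at equal depth in skin and lung, with a dot at the median cell and a bar from the 10th to the 90th percentile of cells. The bars of the immediate early list do not overlap, at 25 to 71 counts in skin and 4 to 19 in lung before the added 1, whereas the cell cycle list has a median of 3 in both.

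Interferon stimulated genes were mostly lower in skin, even though Ifng was higher there. Of 28 compared, 23 were higher in lung, 9 of them at least 2-fold, and 3 were at least 2-fold higher in skin. With scaling by the median ratio 13 were at least 2-fold higher in lung and 3 in skin. The median log2 ratio was -0.76. Bst2, the gene of the antiviral protein tetherin, stood at 142 CPM in skin, 284 in lung, 301 in lymph node and 296 in liver. Irf7, a transcription factor that amplifies the response, stood at 49.5, 81.5, 139 and 89.7, and Ifi47, a GTPase gene, at 48.9, 135, 258 and 154. Isg15, a ubiquitin-like modifier whose promoter is shown with the same motif as Bst2, was an exception, at 151 CPM in skin and 57.2 in lung (2.64-fold, 2.32 to 3.01). Isg20, an exonuclease gene, was another, at 72.0 and 21.3 CPM. The counts per cell were low, with medians of 1 in skin and 2 in lung.

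The Gimap GTPases, which support the survival of resting lymphocytes, were all lower in skin, 8 of 8 at least 2-fold under either scaling. Gimap4 stood at 54.1 CPM in skin, 327 in lung, 255 in lymph node and 306 in liver, 6.04-fold higher in lung than in skin (5.19 to 7.07). Gimap6 followed at 50.7, 220, 196 and 208 CPM. Skin thus stood apart from all 3 other libraries for both genes. In the Bcl2 family Bcl2 itself was 2.25-fold higher in lung (1.74 to 2.95). Bcl2a1b and Bcl2a1d were 12.8-fold and 27.0-fold higher in skin, but share 77.1% and 88.8% of their words with another copy, so their split is uncertain.

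Genes of glycolysis, heat shock and sterol synthesis were mostly higher in skin, and other lists of metabolism and stress had no such order. Of 20 genes of glycolysis and hypoxia 18 were higher in skin and 12 at least 2-fold. Hk2, the first enzyme of glucose use, stood at 75.9 CPM in skin and 6.57 in lung (11.6-fold, 8.57 to 15.9). Ldha, which makes lactate, stood at 880 and 420 (2.10-fold, 1.99 to 2.20), and Hilpda, a lipid droplet protein gene induced by hypoxia, at 306 and 31.6, with 249 CPM in liver. Of 16 heat shock genes 15 were higher in skin, 6 at least 2-fold, or 13 and 4 with scaling by the median ratio. The chaperone genes Hspa5 and Dnaja1 were 3.06-fold (2.91 to 3.21) and 3.51-fold (3.33 to 3.70) higher. Of 18 sterol synthesis genes 16 were higher in skin and 6 at least 2-fold, or 15 and 4 with scaling by the median ratio and then 1 in lung, led among well covered members by Insig1, a brake on the pathway, at 79.9 and 16.0 CPM. Amino acid stress genes had no direction, with 9 of 17 higher in skin around a median of 0.00 on the log2 scale. Of 13 genes of lipid uptake and fatty acid metabolism 7 were higher in skin, and their median was 0.23 on the log2 scale, close to the 0.21 of all genes. Oxidative phosphorylation had 11 of 25 higher in skin, a median of -0.08 and no gene past 2-fold.

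Metallothionein and oxidative stress genes were split: 8 of 14 were higher in skin, the list median was 0.41 on the log2 scale, and 2 were past 2-fold toward skin and 4 toward lung. Per cell the list gave medians of 14 counts in skin and 7 in lung, and it summed to 7813 and 4141 CPM. Abundant members weigh most in such sums, so they do not describe the list member by member. The metallothioneins Mt1 and Mt2, which bind zinc, stood at 42.8 and 9.72 CPM in skin and 155 and 52.5 in lung, ratios of 3.61 (3.03 to 4.33) and 5.40 (3.77 to 8.0) toward lung. Txnip, an inhibitor of thioredoxin and glucose uptake, was 2.88-fold higher in lung (2.55 to 3.26), while Fth1, the heavy chain of the iron store ferritin, was 3.34-fold higher in skin (3.26 to 3.42). Of the S100, galectin and annexin genes 11 of 15 were higher in lung, with 1 past 2-fold, S100a10, at 1828 and 5178 CPM, or 3 with scaling by the median ratio. Of 19 proteasome genes 15 were higher in lung and 0 passed 2-fold in either direction, or 1, toward lung, with the same scaling. Cell cycle genes were slightly higher in skin, 27 of 30 with a median log2 ratio of 0.54 and 8 past 2-fold. Top2a and Mki67, markers of dividing cells, were 2.99-fold (2.52 to 3.57) and 2.88-fold (2.14 to 3.88) higher. At equal depth, 3.43% of skin cells (38 cells) and 1.73% of lung cells (36 cells) had a count of at least 2 of 5 cycle genes. Before thinning, when lung cells were deeper, the shares were 4.09% (50 cells) and 3.92% (91 cells).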

How the data were processed

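The deposited table holds raw counts per gene and cell as the authors made them, without normalization. The tools named per the submitters' processing notes are Bowtie and RSEM, on mm10. Versions, gene and cell filters, and whether counts are of unique molecules: not given in the sources used here. Counts were summed per tissue and scaled to CPM over listed genes with Python 3.11.15, numpy 2.4.6, pandas 2.3.3 and scipy 1.17.1. Each ratio has the exact 95% interval for 2 Poisson counts (conditional binomial), and each share the Clopper-Pearson interval. A count of 0 was set to 3 over the tissue. The ratios and intervals were tested on simulated Poisson counts only. That is the model the interval assumes, so the test cannot show how the intervals hold where single cells have many of the counts. Members, 31 gene lists and 13 marker lists were chosen with earlier results of these data known. The 15 genes named per direction had the interval bound farthest from equality, a level of 50 CPM or more and detection in 10% of cells of the higher tissue, without ribosomal, mitochondrial, receptor, immunoglobulin, histone, predicted or pseudogene names or near-identical copies. List members could also be named. Near-identical was set, after the data were seen, at 30% of 31-base words of GENCODE M21 transcripts (GRCm38) shared with a gene in the table. Promoters are from RefSeq GRCm38.p6. Scrublet (scanpy 1.11.5, expected rate 0.05) called 27 doublets in skin and 10 in lung, which were kept. Cycling cells had a count of at least 2 of the genes Mki67, Top2a, Birc5, Cdk1 and Ccnb2. Depth was 3292210 counts in skin and 8072278 in lung. The column names of 0 cells gave no tissue.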

Additional observations from a re-analysis of the deposited data

How the results depend on the processing

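No paired analysis was possible because the 4 lane samples of a tissue have no columns of their own, and for the same reason no sample could be left out. Of 1085 recomputed values of the genes named, 0 changed the sign of a ratio whose interval excluded equality. However, 186 of them lay outside the 95% interval of their gene, so the intervals do not cover the choice of processing. The medians of the cytotoxic granule and amino acid stress lists lay on the other side of 0 with scaling by the median ratio, at -0.09 and -0.20. The 2-fold counts, 1417 toward skin and 575 toward lung, became 776 and 373 among genes with a summed count of at least 100, which leaves fewer genes tested, and 658 and 230 where the interval bound had to pass 2-fold. With scaling by the median ratio they were 1070 and 832. That scaling moved the list medians of heat shock to 0.47, proteasome to -0.51 and oxidative phosphorylation to -0.29. Leaving out cycling cells moved the cell cycle median to 0.21, as its construction implies. Thinning to 2215 counts raised detection: Nr4a1 to 87.7% of skin cells, Klf2 to 17.7% of skin and 81.8% of lung cells, Gzma to 32.2% and 94.5%, and Itgae to 66.7% and 35.2%. Few of the 155 single genes moved by over 2-fold under some setting. The log2 ratio of Ccl1, 12.7, was 11.2 with each cell weighed the same, 11.1 at equal depth and 11.7 without the top cell of each tissue. Ggt1 went from -6.87 to -5.79 and -5.49 under the first 2 of these, Ccl9 and Lef1 without the top cells from -2.12 and -3.56 to -3.56 and -1.76, Cd160 from 3.83 to 5.02 without cycling cells and 5.35 at equal depth, and the cycle gene Ube2c from -0.06 to -3.36 without cycling cells. The cause was not tested. Depth limits genes with few counts, such as Zfp683 and S1pr1 in skin, and 1 library per tissue limits every value.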

Other observations

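A few genes were read in 1 of the tissues and not in the other, and were picked for this after their values were seen. Ptger3, a receptor gene for prostaglandin E2, had 99 counts in skin and 0 in lung, at least 80.9-fold higher in skin with 3 counts set for lung. It stood at 30.1 CPM in skin, 4.85 in lymph node and 0 in liver, and was in 5.23% of skin cells, within the shares of markers of other cells there. Among 14 genes with 0 counts in skin were Klrg1, with 127 counts in lung, the bacterial lipoprotein receptor gene Tlr1, with 93, and the myeloid genes Lyz2 and Chil3, with 234 and 74. The largest lung count of the 14 was 853, of Gm4208, which has the name of a predicted gene.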
